A study of Mus musculus with 18 samples.

Results

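The levels of 30 genes that mark macrophages and other leukocytes were followed in RNA sequencing of mouse neonatal ventricular cardiac fibroblasts (NVCFs). The genes were taken by symbol from a named list, and all 30 were found among the 18264 genes of the deposited table. Macrophages are phagocytes of the innate immune system that settle in the heart before birth and clear dying cells, and cultures of cardiac cells commonly carry some of them along. The transcription factor PU.1 (Spi1) directs their development, the receptor Csf1r keeps them alive by binding Csf1 and Il34, and their adaptors Tyrobp and Fcer1g carry signals from Fc receptors and Trem2. The 3 C1q chains assemble into the first component of the complement cascade, and Cybb is the catalytic subunit of the phagocyte oxidase.

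The 18 libraries fell into 6 groups of 3. In the knockdown arm the cells had control siRNA (si-NC), siRNA against the cell cycle transcription factor Foxm1 (si-Foxm1), the pressor hormone angiotensin II (Ang-II), or siRNA and hormone together (si-Foxm1+Ang-II). In the overexpression arm they had a control (OE-NC) or Foxm1 overexpression (OE-Foxm1). The si-NC libraries bear that name in the sample titles and are called Ctrl in the column headers. That they had control siRNA is read from the titles. The labels give no strain, dose, time or vector, do not say whether the Ang-II cells also had control siRNA, and do not say that replicates were separate cultures, so p-values measure the spread between these libraries, which may be technical.

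Each library held between 14988993 and 19343343 fragments. FPKM, the unit of all levels, scales the fragments of a gene by its length and by the size of the library, and ± after a level is the SD over the 3 libraries of a group. Differences are log2 fold changes of FPKM + 1 with their standard error, which understate changes of weakly expressed genes, and a gene was said to rise or fall where the limma adjusted p was under 0.05. Foxm1 itself averaged 10.1 ± 0.41 FPKM with control siRNA against 5.97 ± 0.79 FPKM with its siRNA, 4.64 ± 0.88 FPKM in Ang-II and 3.31 ± 0.26 FPKM in si-Foxm1+Ang-II, and 16.6 ± 0.8 FPKM in OE-NC against 455 ± 49 FPKM in OE-Foxm1. In each of these pairs the libraries did not overlap, with a two-sided exact permutation p of 0.1, the smallest that 3 against 3 libraries can give. For the genes below, lack of overlap describes the libraries only, since its share among all tested genes was not computed. Ang-II replicate 3 stood apart from its group, with mean chi-square values of 5.09 and 5.52 against the other 2 libraries where the remaining pairs of libraries within a group gave 1.69 to 2.88.

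The genes spanned a wide range of levels. Lyz2, the secreted lysozyme of macrophages, and Gpnmb, a lysosomal glycoprotein that other cell types make as well, were the most abundant, with means over 18 libraries of 180.2 and 178 FPKM. Ctss, a lysosomal protease, followed at 47.7 FPKM, the scavenger receptor Cd68 at 16.0 FPKM and the adaptor Tyrobp at 13.3 FPKM. Another 17 genes averaged between 1 and 10 FPKM, and 8 averaged under 1 FPKM. The pan-leukocyte phosphatase Ptprc (CD45) was one of the latter, at 0.603 FPKM, and was above 0 in every library.

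At the bottom were receptors that mark subsets of macrophages. Cd163, the haemoglobin scavenger receptor of resident macrophages, had 1 fragment in all 18 libraries, and Ccr2, the receptor of monocytes recruited from blood, had 4. Cx3cr1, the fractalkine receptor, had 124 fragments and lay between 0.042 and 0.234 FPKM, and Aif1, an actin-binding protein also known as Iba1, had 37 fragments. These are small counts, and as recovered from FPKM they are the smallest whole numbers that the values allow. Altogether 27 of the 30 genes were above 0 in all 18 libraries.

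**Figure D1:**
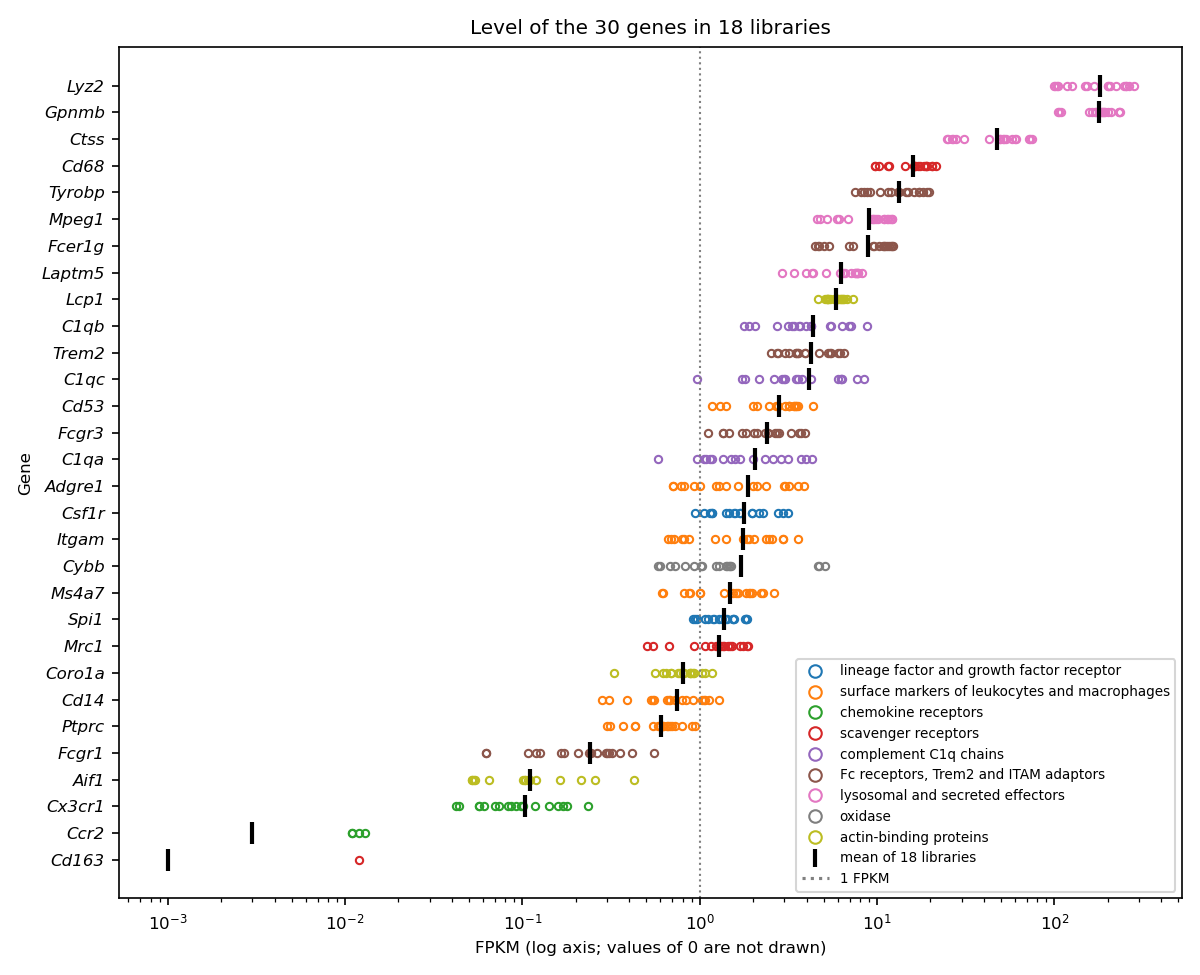
FPKM on a log axis (x) for each of the 30 genes (y), with 1 open point per library, coloured by role, and a black bar at the mean of 18 libraries. Lyz2 and Gpnmb lie near 180 FPKM, 22 means lie above the dotted line at 1 FPKM, and Ccr2 and Cd163 are nearly empty.

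Other leukocytes left little trace. Of 15 lymphocyte genes 10 were in the table, and the highest, the T cell kinase Lck, averaged 0.144 FPKM. Of 13 neutrophil and monocyte genes 9 were in the table, and 8 of them averaged under 0.1 FPKM, among them S100a8, Elane and Mpo, while Plac8 averaged 2.73 FPKM. Genes of antigen presentation to T cells were low as well, with 1 of 10, the costimulatory ligand Cd80, averaging above 1 FPKM, and the class II chain H2-Aa under 0.1 FPKM. The mast cell genes Tpsb2 and Ms4a2 were at 0 in every library although the protease Mcpt4 was present. Mcpt4 moved with the siRNA, from 2.02 ± 0.23 FPKM in si-NC to 21.5 ± 0.1 FPKM in si-Foxm1 and from 3.82 ± 0.48 FPKM in Ang-II to 26.2 ± 0.31 FPKM in si-Foxm1+Ang-II, opposite in direction to most of the 30 genes.

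The cultures also held RNA of the main heart cell types. All 13 fibroblast genes listed averaged at least 1 FPKM, up to 1401 FPKM for fibronectin (Fn1). All 18 cardiomyocyte genes did so too, up to 1933 FPKM for the troponin Tnnt2.

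Promoter sequence is shown for 5 genes, picked after their values were seen. C1qb and C1qc fell and Itgam and Cybb rose with Foxm1 overexpression, and Ctss had the largest fall with the siRNA on the log2(FPKM + 1) scale, as described below. RefSeq windows of build GRCm38.p6, which is not the mm39 build of the deposited values, were matched by symbol for 24 of the 30 genes, and the 250 bases before the annotated start are given 5′ to 3′ on the gene's strand. Capitals mark the PU.1 core GAGGAA on either strand. C1qb lies at chr4:136886201-136886450, minus strand, C1qc at chr4:136892915-136893164, minus strand, Itgam at chr7:128062390-128062639, plus strand, Cybb at chrX:9469325-9469574, minus strand and Ctss at chr3:95526536-95526785, plus strand.
C1qb: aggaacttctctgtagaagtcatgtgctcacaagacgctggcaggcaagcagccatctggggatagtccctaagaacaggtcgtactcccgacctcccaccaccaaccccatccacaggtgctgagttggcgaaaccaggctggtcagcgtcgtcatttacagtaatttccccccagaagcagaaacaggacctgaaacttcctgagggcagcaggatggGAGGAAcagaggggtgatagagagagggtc
C1qc: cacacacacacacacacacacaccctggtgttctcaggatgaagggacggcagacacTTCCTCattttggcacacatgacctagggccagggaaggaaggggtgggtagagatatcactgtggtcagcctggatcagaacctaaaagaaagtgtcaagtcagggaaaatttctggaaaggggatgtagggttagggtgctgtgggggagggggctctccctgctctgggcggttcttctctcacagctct
Itgam: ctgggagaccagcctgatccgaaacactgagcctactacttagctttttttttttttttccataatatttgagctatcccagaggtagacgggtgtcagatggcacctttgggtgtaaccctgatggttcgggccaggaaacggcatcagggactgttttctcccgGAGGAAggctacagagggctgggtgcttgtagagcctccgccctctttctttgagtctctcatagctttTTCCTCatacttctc
Cybb: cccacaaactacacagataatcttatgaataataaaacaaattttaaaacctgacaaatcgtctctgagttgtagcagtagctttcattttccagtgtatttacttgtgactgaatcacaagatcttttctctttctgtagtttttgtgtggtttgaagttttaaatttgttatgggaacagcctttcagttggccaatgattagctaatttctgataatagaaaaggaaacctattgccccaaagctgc
Ctss: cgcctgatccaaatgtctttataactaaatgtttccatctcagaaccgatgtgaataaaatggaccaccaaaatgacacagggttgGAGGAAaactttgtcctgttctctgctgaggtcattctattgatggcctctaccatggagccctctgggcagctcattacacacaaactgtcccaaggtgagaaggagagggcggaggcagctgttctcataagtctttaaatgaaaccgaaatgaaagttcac

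The core was present once before C1qb, starting 30 bases before the start, once before C1qc, at 193 bases, once before Ctss, at 164 bases, and at 2 places before Itgam, at 84 and 15 bases. These letters were not in the Cybb window. Among the 24 genes with a window, 13 (54.2%) held the core in at least 1 window, against 6986 of 27025 genes (25.9%) with a window of this length. The forkhead core TGTTTAC, on either strand, was in 0 of the 24 genes and in 3.54% of all genes. The C/EBP core TTGCNNAA, where N is any base, was searched as well. It was in 2 of the 24 genes (8.33%) and in 10.8% of all genes. Such matches are a description of the letters and show neither binding nor a cause. C1qa, C1qb and C1qc are neighbours in the genome, with no other protein-coding gene between them in RefSeq.

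Summed over the 30 genes, the level was lower in every library with Foxm1 siRNA than in its controls, and higher in every library with overexpression. Summed FPKM was 563 to 587 in si-NC and 344 to 402 in si-Foxm1. It was 613 to 659 in Ang-II and 289 to 315 in si-Foxm1+Ang-II. In the overexpression arm it was 480.2 to 498 in OE-NC and 598 to 649 in OE-Foxm1. Neither pair of siRNA groups overlapped, nor did the overexpression groups. Lyz2, Gpnmb and Ctss made up most of these sums, and the other 27 genes together differed in the same directions, with 112 to 114 in si-NC, 62.0 to 76.9 in si-Foxm1, 115 to 122 in Ang-II, 56.5 to 61.9 in si-Foxm1+Ang-II, 88.4 to 91.5 in OE-NC and 102 to 113 in OE-Foxm1. All 30 genes took between 0.0665% and 0.148% of the fragments of a library. In bulk RNA, fewer cells of a type and less RNA of these genes per cell cannot be told apart.

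Summed FPKM of the 18 cardiomyocyte genes moved with the siRNA in the same direction. It was 15930 to 17182 in si-NC, 9212 to 9755 in si-Foxm1, 12191 to 13307 in Ang-II, 7143 to 7392 in si-Foxm1+Ang-II, 9377 to 9935 in OE-NC and 10511 to 11043 in OE-Foxm1. None of these 18 genes averaged under 0.1 FPKM. In Ang-II the cardiomyocyte sum lay below si-NC, whereas the sum of the 30 genes lay above it. The fibroblast sum was 6716 to 6987 in si-NC, 6002 to 6333 in si-Foxm1, 7513 to 7856 in Ang-II, 7114 to 7266 in si-Foxm1+Ang-II, 6016 to 6244 in OE-NC and 6880.2 to 6959 in OE-Foxm1. Smooth muscle and pericyte genes, 9 in all, were lower with the siRNA too, with summed FPKM of 212 to 229 in si-NC, 169 to 186 in si-Foxm1, 264 to 294 in Ang-II and 228 to 237 in si-Foxm1+Ang-II, and 6 of 8 tested fell in each siRNA comparison. The sum of 10 endothelial genes was higher with it, at 84.4 to 91.9, 102 to 106, 62.6 to 69.4 and 71.4 to 78.7 in the same order, and 5 of 9 tested rose in each siRNA comparison. Of all tested genes 17.2% fell and 48.5% rose in si-Foxm1 against si-NC. In si-Foxm1+Ang-II against Ang-II these shares were 17.4% and 44%. The endothelial count that rose was near the share of all genes. In the overexpression arm the smooth muscle and pericyte sum overlapped between the groups and the endothelial sum was higher in OE-Foxm1. Whether these other cell types had a part in the results on the 30 genes was not tested.

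**Figure D2:**
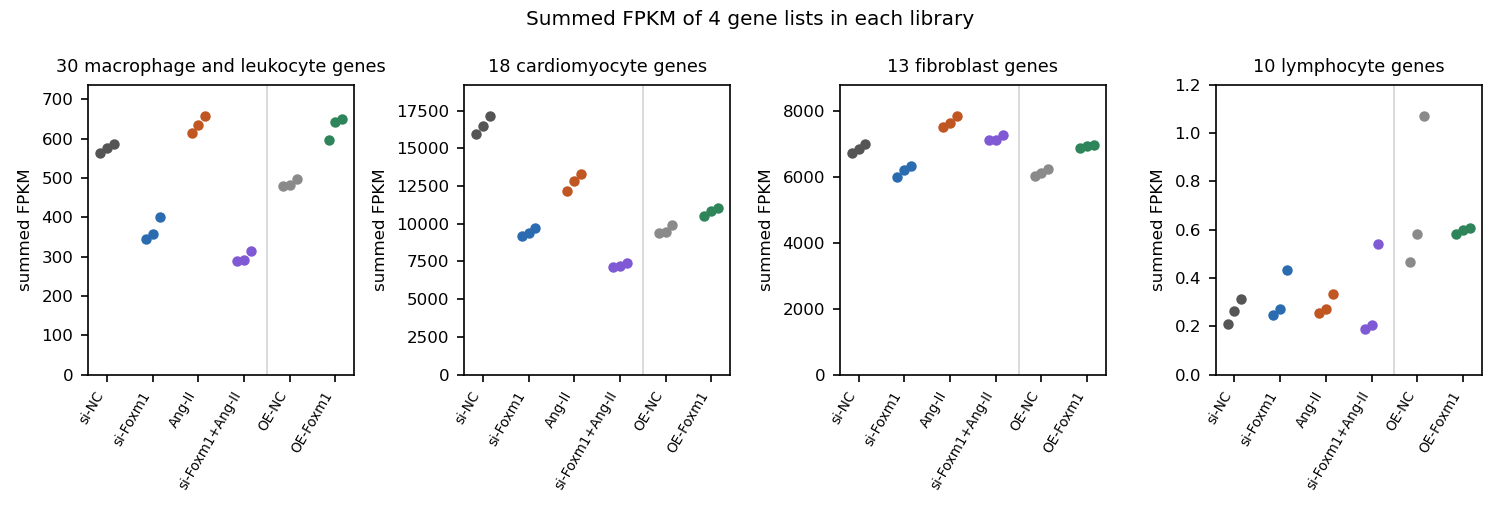
Summed FPKM (y, linear from 0) of 4 gene lists in each library, by group (x), with the 3 points of a group drawn from lowest to highest. The sum of the 30 genes is 344 to 402 in si-Foxm1 and 563 to 587 in si-NC, the cardiomyocyte sum is also lower with the siRNA, and the lymphocyte sum reaches at most 1.07.

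Nearly every macrophage gene that could be tested was lower with siRNA against Foxm1. In si-Foxm1 against si-NC, 20 of 21 tested genes fell and 0 rose, where 17.2% of the 11180 genes tested fell and 48.5% rose. The log2 fold changes of the 21 genes had a median of -0.61, and that of all tested genes was 0.11. Ctss, C1qc, Fcer1g and Lyz2 fell most on the log2(FPKM + 1) scale, while by the ratio of mean FPKM Adgre1 (0.383) and Itgam (0.385) lay below Ctss (0.47), and the actin-bundling protein Lcp1 was the exception. With median-of-ratios scaling, which moved the median of all genes to 0.001, 26.4% of genes rose and 29.3% fell, and 20 of the 21 macrophage genes fell. At an unadjusted p under 0.05 the number that rose was 1, Lcp1, and voom on recovered counts also called 1.

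Of the lineage genes, the growth factor receptor Csf1r was 1.97, 1.7 and 2.16 FPKM in the 3 si-NC libraries against 1.4, 0.94 and 1.14 FPKM in si-Foxm1. All si-Foxm1 libraries lay below all si-NC libraries, a log2 fold change of -0.45 ± 0.088 (adjusted p = 0.000563). Spi1, the gene of PU.1, fell by a smaller amount, -0.29 ± 0.079 (adjusted p = 0.0052), from 1.63 ± 0.14 to 1.15 ± 0.16 FPKM.

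The 4 surface markers that could be tested all fell, where 17.2% of all tested genes did. Adgre1, Itgam and Ms4a7 averaged under 1 FPKM in si-Foxm1 and passed the limit for testing through other groups. Cd53, a tetraspanin of leukocytes, was 3.48, 3.17 and 2.77 FPKM in si-NC against 2.46, 1.99 and 2.12 FPKM in si-Foxm1, without overlap, and its log2 fold change was -0.38 ± 0.076 (adjusted p = 0.000699). Adgre1, the F4/80 antigen, fell from 1.91 ± 0.24 to 0.73 ± 0.044 FPKM (-0.75 ± 0.078). Itgam, the CD11b integrin chain, fell by a like amount (-0.74 ± 0.059), and Ms4a7, a membrane protein of tissue macrophages, by less (-0.55 ± 0.088).

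Of the scavenger receptors, Cd68 was 18.4, 18.9 and 20.3 FPKM in si-NC against 14.4, 11.6 and 11.7 FPKM in si-Foxm1. The libraries did not overlap, and the log2 fold change was -0.58 ± 0.07 (adjusted p = 8.12e-06). Mrc1, the mannose receptor, was 1.85, 1.76 and 1.87 FPKM in si-NC against 1.31, 1.29 and 0.924 FPKM in si-Foxm1, lower in each si-Foxm1 library (-0.38 ± 0.076 (adjusted p = 0.000621)).

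All 3 complement chains fell, where 17.2% of all tested genes did. C1qa was 2.6, 3.16 and 2.88 FPKM in si-NC against 1.69, 1.14 and 1.09 FPKM in si-Foxm1. C1qb was 5.5, 5.43 and 6.32 FPKM in si-NC against 3.31, 2.72 and 3.15 FPKM in si-Foxm1. C1qc was 5.99, 6.38 and 6.27 FPKM in si-NC against 3.6, 2.15 and 2.62 FPKM in si-Foxm1. None of the 3 overlapped between the groups, a property whose share among all tested genes was not computed. The chains moved by log2 fold changes of -0.76, -0.73 and -0.95 in this order (adjusted p = 4.16e-05, 5.91e-06 and 1.12e-05).

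The signalling adaptors were among the genes with the larger falls. Tyrobp was 17.2, 17.2 and 14.6 FPKM in si-NC against 10.4, 8.1 and 7.53 FPKM in si-Foxm1, and every si-Foxm1 library was lower (-0.85 ± 0.088 (adjusted p = 2.21e-06)). Fcer1g, the Fc receptor gamma chain, fell by 0.89 on the log2 scale. The lipid receptor Trem2 changed by -0.58 ± 0.077 and the IgG receptor Fcgr3 by -0.47 ± 0.094, both past the test.

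Among lysosomal and secreted products the fall was uneven. Lyz2 was 207, 200.4 and 201 FPKM in si-NC against 125, 101 and 103 FPKM in si-Foxm1, with no overlap and a difference of -0.89 ± 0.074 (adjusted p = 3.03e-07). Gpnmb, as abundant in si-NC, was 208, 191 and 201 FPKM there and 169, 156 and 162 FPKM in si-Foxm1, a smaller change of -0.30 ± 0.039 (adjusted p = 1.69e-05). Ctss fell from 59.4 ± 1.7 to 27.9 ± 2.9 FPKM (-1.07 ± 0.056). Mpeg1, the pore-forming perforin-2, changed by -0.75 ± 0.053 and Laptm5, a lysosomal membrane protein of blood cells, by -0.61 ± 0.078. Lyz2 has a close paralog, Lyz1, which was listed at 0 to 0.719 FPKM, and how fragments shared by the 2 were counted is not given in the sources used here.

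Lcp1 did not pass the test, and its difference was above 0 as deposited but near 0 in other scalings (0.01 with median-of-ratios scaling and -0.003 with quantile normalization). Its libraries were 6.39, 6.31 and 5.92 FPKM in si-NC against 6.77, 6.49 and 7.3 FPKM in si-Foxm1, higher in all 3, with a log2 fold change of 0.12 ± 0.052 and an adjusted p of 0.0515. Without Ang-II replicate 2, Ang-II replicate 3 or si-Foxm1 replicate 2 the change was 0.12, 0.12 and 0.16 and passed the test (adjusted p = 0.0373, 0.0404 and 0.0301).

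In the knockdown arm 9 genes averaged under 1 FPKM and were not tested. Cybb, at 0.995 FPKM, lay just under that limit, and Mrc1, at 1.19 FPKM, was the lowest inside it. Cybb was 1.42, 1.51 and 1.42 FPKM in si-NC against 0.923, 0.683 and 0.827 FPKM in si-Foxm1, so that every si-Foxm1 library was lower. Of the tested genes 4, Adgre1, Itgam, Mrc1 and Ms4a7, averaged under 1 FPKM in at least 1 group and passed the limit through the other groups. With the limit at 0.1 FPKM 27 genes were tested, of which 24 fell and 0 rose, where 15.7% of the 13672 genes tested fell and 42.6% rose. Cybb, Ptprc, Fcgr1 and Aif1 were among those that fell, by 0.44, 0.22, 0.23 and 0.25 on the log2 scale, Aif1 on 3 fragments in si-Foxm1 against 15 in si-NC and with overlap, while the co-receptor Cd14 (-0.19, adjusted p = 0.165) and the actin regulator Coro1a (-0.26, adjusted p = 0.0657) did not pass.

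**Figure D3:**
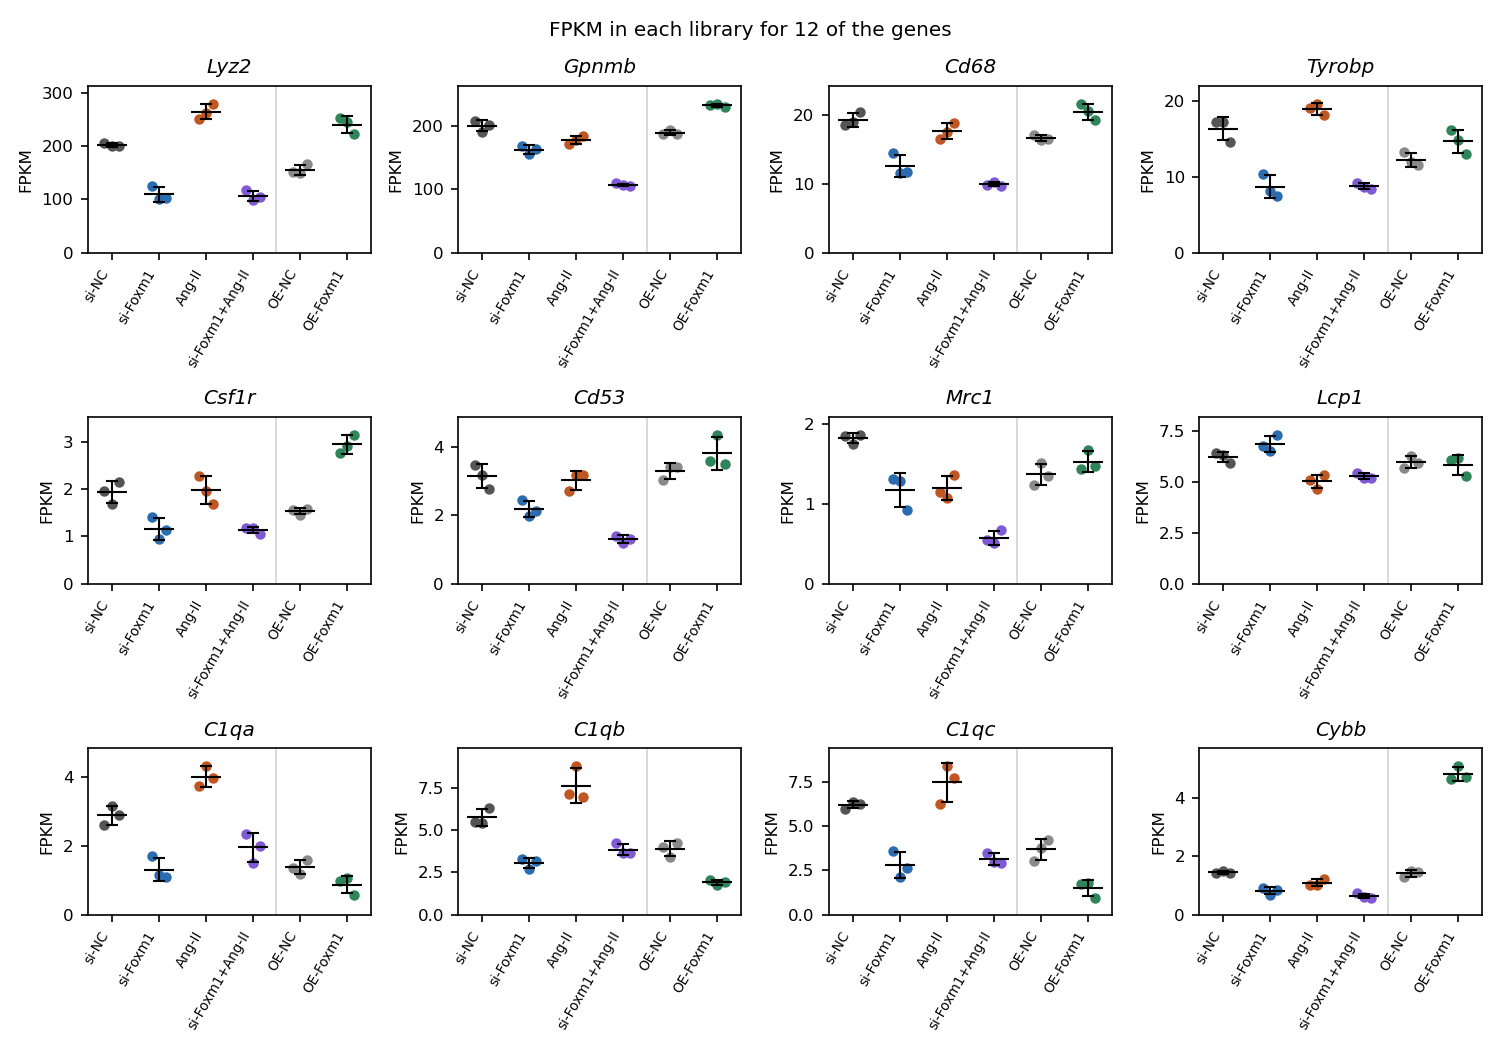
FPKM (y, linear from 0) in each library for 12 of the genes, by group (x), with 1 point per library and black bars for mean ± SD of 3 libraries. Lyz2 is 101 to 125 in si-Foxm1 and 200.4 to 207 in si-NC, Lcp1 is 4.65 to 5.32 in Ang-II, below its si-NC libraries, and in OE-Foxm1 the C1q chains are low where Cybb is high.

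With angiotensin II alone these genes changed in both directions. In Ang-II against si-NC, 6 of 21 tested genes rose, where 15.2% of all tested genes rose, and 3 fell, where 29.2% of all tested genes fell. Lyz2, Adgre1, C1qa, C1qb, Ctss and Itgam rose, and Mrc1, Lcp1 and Gpnmb fell. The median log2 fold change was 0.091 over the 21 genes and -0.035 over all genes. Under median-of-ratios scaling 22.2% of all genes rose and 21.7% fell, with 8 and 3 of the 21.

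Lyz2 reached 252, 263 and 280.0 FPKM in Ang-II, above all si-NC libraries (0.38 ± 0.074 (adjusted p = 0.00088)). C1qa was 3.72, 4.31 and 3.97 FPKM and C1qb 7.15, 8.8 and 6.93 FPKM, both above every si-NC library, with log2 fold changes of 0.37 ± 0.11 and 0.35 ± 0.085. C1qc, at 6.28, 8.41 and 7.75 FPKM, also lay higher on average but did not pass (0.23 ± 0.12 (adjusted p = 0.138)). The rise of C1qa was lost without Ang-II replicate 2 (0.32, adjusted p = 0.0557) or without si-NC replicate 1 (0.31, adjusted p = 0.0613), and C1qc passed without Ang-II replicate 1 (0.33, adjusted p = 0.0429). Adgre1 rose by 0.38 ± 0.078, Ctss by 0.30 ± 0.056 and Itgam by 0.26 ± 0.059.

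Mrc1 was lower with the hormone, 1.16, 1.07 and 1.37 FPKM, with no library in the si-NC range (-0.37 ± 0.076 (adjusted p = 0.00151)). Gpnmb was 171, 178 and 184 FPKM, below all si-NC libraries (-0.17 ± 0.039 (adjusted p = 0.00263)). Lcp1 was 5.08, 4.65 and 5.32 FPKM (-0.26 ± 0.052 (adjusted p = 0.00106)). Thus Lyz2 and Gpnmb, at nearly the same FPKM in si-NC, moved apart. The ratio of Gpnmb to Lyz2 was 0.951 to 1.005 in si-NC, 0.656 to 0.676 in Ang-II and 1.34 to 1.58 in si-Foxm1. In si-Foxm1+Ang-II it was 0.927 to 1.072, around the si-NC range. In the overexpression arm it was 1.118 to 1.294 in OE-NC and 0.914 to 1.035 in OE-Foxm1.

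Several genes did not pass the test in Ang-II. Cd68 was 16.4, 17.5 and 18.8 FPKM (-0.12 ± 0.07 (adjusted p = 0.178)), Csf1r 2.28, 1.97 and 1.69 FPKM (0.017 ± 0.088 (adjusted p = 0.894)) and Cd53 2.7, 3.17 and 3.18 FPKM (-0.042 ± 0.076 (adjusted p = 0.688)), and each overlapped with si-NC. Tyrobp was 19.1, 19.7 and 18.2 FPKM, higher in all 3 libraries than in si-NC, with an adjusted p of 0.0747 for a change of 0.21. It passed without si-Foxm1 replicate 1 or 3 (adjusted p = 0.0142 and 0.0483). Tyrobp also passed with a replicate block, median-of-ratios scaling and quantile normalization (adjusted p = 0.0214, 0.031 and 0.0326). Cybb, not tested in the main fit, was 1.03, 1.01 and 1.23 FPKM and below every si-NC library. With the limit at 0.1 FPKM, which let Cybb in, 4 of 27 genes fell and 6 rose. Of all genes 26.5% fell and 13.3% rose there.

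In cells given angiotensin, too, nearly all tested genes were lower with the siRNA. In si-Foxm1+Ang-II against Ang-II, 20 of 21 tested genes fell, where 17.4% of all genes fell, and 0 rose in limma, at an unadjusted p under 0.05 and in voom, where 44% of all genes rose. The median log2 fold change was -0.83 over the 21 genes and 0.089 over all. Scaled by median of ratios, 27.6% of all genes rose and 27.9% fell, and 20 of the 21 fell. Cardiomyocyte genes moved alongside in both siRNA comparisons, with 16 of 18 lower without the hormone and 15 of 18 lower with it. Of all genes 17.2% and 17.4% fell in these comparisons. The medians of the cardiomyocyte genes were -0.83 and -0.85. The 2 siRNA comparisons share no library.

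Ctss fell most on the log2(FPKM + 1) scale, from 73.5 ± 1.4 to 25.9 ± 1.1 FPKM (-1.47 ± 0.056 (adjusted p = 1.99e-10)). By the ratio of mean FPKM Itgam (0.318) and Adgre1 (0.33) lay below Ctss (0.353). Lyz2 was 117, 99.1 and 104 FPKM in si-Foxm1+Ang-II, below every Ang-II library (-1.30 ± 0.074 (adjusted p = 8.06e-09)). Mpeg1, Fcer1g and Tyrobp fell by 1.16, 1.08 and 1.03 on the log2 scale, Tyrobp to 9.17, 8.72 and 8.38 FPKM. The complement chains lay at 2.34, 1.49 and 2 FPKM for C1qa, 4.21, 3.61 and 3.66 FPKM for C1qb and 3.5, 2.98 and 2.91 FPKM for C1qc, all below the Ang-II libraries, with log2 fold changes of -0.77, -0.83 and -1.03.

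Gpnmb was 109, 106 and 105 FPKM, Cd68 9.74, 10.2 and 9.69 FPKM and Cd53 1.4, 1.17 and 1.3 FPKM, each without overlap with Ang-II (-0.73, -0.77 and -0.81). Mrc1 was 0.544, 0.507 and 0.667 FPKM (-0.48 ± 0.076), the group in which it was lowest. Csf1r, at 1.17, 1.17 and 1.06 FPKM (-0.48 ± 0.088), and Spi1 (-0.30 ± 0.079) passed as well. Lcp1, at 5.44, 5.21 and 5.19 FPKM, overlapped with Ang-II and did not pass (0.063 ± 0.052 (adjusted p = 0.309)). Cybb was 0.724, 0.597 and 0.579 FPKM, below all Ang-II libraries, and was not tested in the main fit. With the limit at 0.1 FPKM, which let Cybb in, 24 of 27 genes fell and 0 rose. Of all genes 15.9% fell and 38.3% rose there.

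Whether the siRNA acted more strongly with the hormone was tested as an interaction. All 21 estimates were below 0, with a median of -0.21 against -0.018 for all genes, but few passed. These estimates come from the same 12 libraries and are not independent, and the share of all genes below 0 was not computed. Gpnmb (-0.43 ± 0.055 (adjusted p = 0.00231)), Mpeg1 (-0.41 ± 0.074 (adjusted p = 0.0195)) and Ctss (-0.40 ± 0.079 (adjusted p = 0.029)) passed as lower, 3 of 21 where 0.519% of all genes did, and 0 passed as higher in limma, at an unadjusted p under 0.05 and in voom, where 0.403% of all genes did. Under median-of-ratios scaling 0.599% of all genes passed as higher and 0.429% as lower, with 0 and 3 of the 21. At an unadjusted p under 0.05 the lower count was 8, and the share of all genes at that threshold was not computed. Lyz2 (-0.42, adjusted p = 0.0841) and Cd53 (-0.43, adjusted p = 0.0833) had estimates of the same size, and voom called both, for 5 in all. In voom 1.05% of all genes passed as lower and 1% as higher. The complement chains had estimates near 0 (-0.013 to -0.10).

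Gpnmb kept its interaction call with each library left out, and the other 2 did not. Ctss lost the call without Ang-II replicate 1, without si-Foxm1+Ang-II replicate 2 or 3, and without any of the 3 si-NC libraries (adjusted p = 0.0579 to 0.0845). Its estimates there, -0.37 to -0.42, stayed close to that of the full fit. Mpeg1 lost the call without si-Foxm1+Ang-II replicate 2 or 3 or si-NC replicate 3 (-0.38 to -0.40, adjusted p = 0.0548 to 0.0608). Lyz2 passed without si-Foxm1+Ang-II replicate 1 (-0.48, adjusted p = 0.0482).

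In cells with Foxm1 siRNA, more of these genes were lower than higher with angiotensin. In si-Foxm1+Ang-II against si-Foxm1, 8 of 21 fell, where 34.6% of all genes fell, and 2 rose, where 12.9% of all genes rose. The share that fell was near that of all genes, and the medians were -0.075 and -0.067. Under median-of-ratios scaling 22.1% of all genes rose and 20.3% fell, with 2 and 8 of the 21. On the log2(FPKM + 1) scale Gpnmb fell by the largest amount (-0.60 ± 0.039 (adjusted p = 6.36e-08)), followed by Cd53 (-0.47), Mrc1 (-0.46), Laptm5 (-0.34), Mpeg1 (-0.32), Lcp1 (-0.32), Cd68 (-0.31) and Trem2 (-0.29). By the ratio of mean FPKM Mrc1 (0.487) and Cd53 (0.591) lay below Gpnmb (0.656).

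C1qa (0.35 ± 0.11 (adjusted p = 0.0168)) and C1qb (0.25 ± 0.085 (adjusted p = 0.0255)) were the 2 that rose. C1qa did not pass without si-Foxm1+Ang-II replicate 1 or 3 or si-Foxm1 replicate 2 or 3 (adjusted p = 0.052 to 0.0815), nor did C1qb without si-Foxm1+Ang-II replicate 1 or si-Foxm1 replicate 2 (adjusted p = 0.105 and 0.113). C1qc passed without si-Foxm1 replicate 1 (0.29, adjusted p = 0.0337), Ctss without si-Foxm1 replicate 2 (-0.17, adjusted p = 0.0102) and Fcgr3 without si-Foxm1 replicate 3 (-0.27, adjusted p = 0.0398). The comparisons of the knockdown arm share groups, so their values are not independent of each other.

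With Foxm1 overexpression most macrophage genes that changed were higher, and the complement chains were lower. In OE-Foxm1 against OE-NC, 12 of 22 tested genes rose, where 27.1% of the 11259 genes tested rose, and 3 fell, where 28% of all genes fell. The median was 0.26 over the 22 genes and -0.001 over all. Other cell type lists rose as well. Of 13 fibroblast genes 10 rose and 1 fell (median 0.243), and of 18 cardiomyocyte genes 11 rose and 2 fell (median 0.135). Of 9 tested endothelial genes 3 rose and 0 fell, and of 8 smooth muscle and pericyte genes 2 rose and 3 fell. The rise was thus not particular to the macrophage genes. Cybb, Adgre1, Itgam, Csf1r and Lyz2 rose most on the log2(FPKM + 1) scale, while by the ratio of mean FPKM Fcgr3 (1.71) and Ms4a7 (1.71) lay above Lyz2 (1.54), and the 3 genes that fell were C1qa, C1qb and C1qc.

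Cybb was 1.28, 1.49 and 1.47 FPKM in OE-NC and 4.65, 5.11 and 4.73 FPKM in OE-Foxm1. Every OE-Foxm1 library was above every OE-NC library, and the log2 fold change was 1.27 ± 0.059 (adjusted p = 1.26e-07). In the knockdown arm no library of Cybb exceeded 1.51 FPKM. Cyba, the partner subunit of Cybb in the oxidase, rose by 0.25.

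Surface markers and the growth factor receptor rose without overlap between groups. Adgre1 went from 1.24 to 1.4 FPKM to 3.2 to 3.89 FPKM (0.98 ± 0.068 (adjusted p = 1.48e-06)) and Itgam from 1.23 to 1.84 to 2.95 to 3.58 FPKM (0.74 ± 0.094 (adjusted p = 8.92e-05)). Csf1r was 1.57, 1.46 and 1.57 FPKM in OE-NC and 2.77, 2.93 and 3.15 FPKM in OE-Foxm1 (0.64 ± 0.059 (adjusted p = 1.1e-05)). Spi1 rose by 0.34 and Ms4a7 by 0.49. Cd53, at 3.02, 3.42 and 3.42 FPKM and 3.59, 4.36 and 3.49 FPKM, was higher in each OE-Foxm1 library and did not pass (0.16 ± 0.074 (adjusted p = 0.0848)).

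Among effectors and receptors, Lyz2 was 152, 149 and 167 FPKM in OE-NC and 254, 246 and 222 FPKM in OE-Foxm1 (0.62 ± 0.053 (adjusted p = 6.31e-06)). Gpnmb was 187, 193 and 187 FPKM and 232, 234 and 230.2 FPKM (0.30 ± 0.027 (adjusted p = 9.42e-06)). Cd68 was 17, 16.2 and 16.4 FPKM and 21.5, 20.4 and 19.2 FPKM (0.28 ± 0.045 (adjusted p = 0.000375)). For these 3 no library of one group entered the range of the other, and the share of all genes without overlap was not computed. Fcgr3 rose by 0.57 ± 0.062, Fcer1g by 0.32 ± 0.095 and Tyrobp by 0.24 ± 0.071.

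The complement chains went down. C1qb was 3.99, 3.39 and 4.26 FPKM in OE-NC and 2.05, 1.76 and 1.91 FPKM in OE-Foxm1 (-0.74 ± 0.073 (adjusted p = 1.77e-05)). C1qc was 3.03, 3.79 and 4.24 FPKM and 1.73, 1.79 and 0.963 FPKM (-0.92 ± 0.13 (adjusted p = 0.000213)). C1qa was 1.36, 1.17 and 1.58 FPKM and 0.971, 1.06 and 0.578 FPKM (-0.35 ± 0.1 (adjusted p = 0.0149)). C1qa averaged under 1 FPKM in OE-Foxm1 and passed the limit through OE-NC. In each chain the 2 groups did not overlap, and the share of all genes without overlap was not computed. The ratio of Cybb to C1qb, chosen after its values were seen, was 0.322 to 0.438 in OE-NC and 2.26 to 2.89 in OE-Foxm1, and 0.115 to 0.278 in the knockdown arm.

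The 7 tested genes that did not pass were Ctss (-0.11), Trem2 (-0.11), Lcp1 (-0.028), Mpeg1 (0.077), Mrc1 (0.094), Laptm5 (0.12) and Cd53. Lcp1 was 5.68, 6.27 and 5.91 FPKM in OE-NC and 6.05, 6.16 and 5.27 FPKM in OE-Foxm1, and Mrc1 was 1.24, 1.52 and 1.35 FPKM and 1.44, 1.68 and 1.48 FPKM, with overlap in both. Tyrobp, at 13.2, 11.9 and 11.6 FPKM and 16.2, 14.8 and 13.1 FPKM, lost its call without OE-Foxm1 replicate 1 or OE-NC replicate 3 (adjusted p = 0.0577 and 0.0507), Fcer1g without OE-Foxm1 replicate 2 (0.28, adjusted p = 0.051) and C1qa without OE-NC replicate 3 (-0.28, adjusted p = 0.0558). Ctss passed without OE-Foxm1 replicate 1 (-0.16, adjusted p = 0.0434), Trem2 without OE-NC replicate 3 (-0.22, adjusted p = 0.0255) and Laptm5 without OE-NC replicate 2 (0.21, adjusted p = 0.0489).

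In this arm 8 genes averaged under 1 FPKM. With the limit at 0.1 FPKM 15 genes rose and 3 fell, Cd14, Fcgr1 and Ptprc being the ones added, where 23.7% of the 13885 genes tested rose and 24.9% fell. Cd14, the lipopolysaccharide co-receptor, was 0.281, 0.306 and 0.551 FPKM in OE-NC and 1.06, 1.03 and 1.13 FPKM in OE-Foxm1, without overlap (0.60, adjusted p = 0.000188). Ptprc was 0.579, 0.659 and 0.624 FPKM and 0.791, 0.937 and 0.726 FPKM, also higher in each OE-Foxm1 library (0.16, adjusted p = 0.0427).

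**Figure D4:**
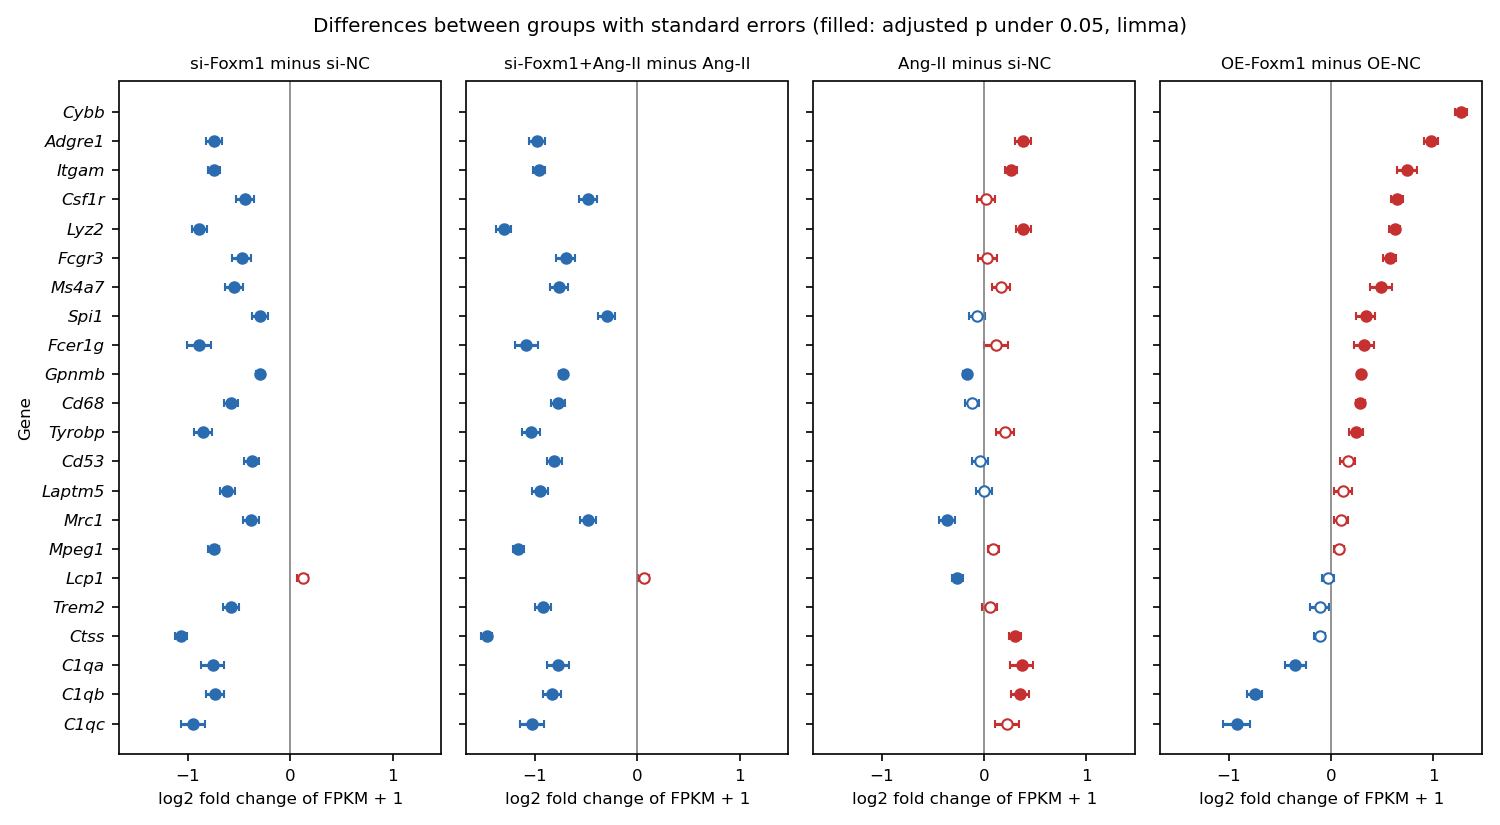
Log2 fold change of FPKM + 1 (x) with its standard error for each tested gene (y, ordered by the overexpression effect) in 4 comparisons, red above 0 and blue below 0, filled where the limma adjusted p is under 0.05. The siRNA panels are blue for 20 of 21 genes, and the overexpression panel runs from C1qc at -0.92 to Cybb at 1.27, with the 3 C1q chains at the bottom.

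Ligands of the macrophage receptors were made in the same cultures and changed as well. Of 10 listed ligands, which were growth factors, chemokines and the lipid carrier Apoe, 6 were tested. Of these 5 rose and 1, Apoe, fell in OE-Foxm1, where 27.1% of all tested genes rose and 28% fell. Csf1, the main ligand of Csf1r, was 135 ± 4.7 FPKM in OE-NC and 186 ± 10 FPKM in OE-Foxm1 (0.45). Il34, its other ligand, rose by 0.55. The monocyte chemokines Ccl2 and Ccl7 rose by 2.45 and 2.55, while their receptor Ccr2 had 1 fragment in the 6 libraries of this arm. Apoe, a lipid carrier that macrophages secrete, fell (-0.42).

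In si-Foxm1 against si-NC 3 of the 6 ligands fell and 1 rose, where 17.2% of all genes fell and 48.5% rose. Csf1 went from 120.3 ± 5.4 to 99.2 ± 3.7 FPKM (-0.28), Il34 changed by -0.37 and Cx3cl1 by -0.29, and Ccl2 rose by 0.62. In cells with angiotensin only Apoe of these 6 passed, lower with the siRNA (-0.62), where 17.4% of all genes fell and 44% rose. That count was near the share of all genes that fell. Csf1 was 153 ± 8.6 FPKM in Ang-II and 147 ± 3.3 FPKM in si-Foxm1+Ang-II. Csf1 and Csf1r were both lower with siRNA in the first comparison and both higher with overexpression. In cells with angiotensin Csf1r fell with the siRNA (-0.48, adjusted p = 0.00036) and Csf1 did not pass. In Ang-II against si-NC Csf1 averaged 153 against 120.3 FPKM, while Csf1r was at 1.98 against 1.94 FPKM (adjusted p = 0.894). Whether the ligand had a part in the level of the receptor was not tested.

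Other phagocyte receptors and adaptors, a list of 35 genes, moved in mixed directions. With siRNA 8 of 16 tested fell and 3 rose, and with siRNA in angiotensin-treated cells 8 fell and 2 rose. Of all tested genes 17.2% fell and 48.5% rose in the first comparison and 17.4% and 44% in the second. Lilrb4a, an inhibitory receptor of myeloid cells, changed by -0.79 and -1.06, Itgb2, the beta chain that pairs with Itgam, by -0.50 and -0.90, and Ms4a6d by -0.61 and -0.88. In OE-Foxm1 10 of 18 tested rose and 2 fell, against 27.1% and 28% of all genes, and those that rose included the lectin Clec4n (1.58), Tlr2 (1.41) and Lilrb4a (0.94).

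Lysosomal and lipid-handling genes, which fibroblasts express too, showed smaller changes. Of 30 tested 10 fell and 7 rose with siRNA (median -0.021), and 17 fell and 4 rose with siRNA in angiotensin-treated cells (median -0.13), where the medians of all tested genes were 0.11 and 0.089 and the shares of all genes that fell and rose were 17.2% and 48.5%, then 17.4% and 44%. The protease legumain, Lgmn, fell by 0.77 and 1.07 on the log2 scale, and the scavenger receptor Cd36 rose by 0.67 and 0.73. With overexpression 22 of 31 rose and 4 fell (median 0.14), where 27.1% of all genes rose and 28% fell, and the macrophage elastase Mmp12 rose by 1.40.

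Of 30 haematopoietic transcription factors and signalling genes 16 were tested. With siRNA 5 fell and 4 rose, without and with angiotensin alike, and 7 rose and 2 fell with overexpression. The shares of all genes were 17.2% lower and 48.5% higher with siRNA, 17.4% and 44% with siRNA in angiotensin-treated cells, and 28% and 27.1% with overexpression. Dock8 and Plcg2, both signalling genes, rose by 0.40 and 0.43 in si-Foxm1 against si-NC. Ncf1, a cytosolic subunit of the oxidase, fell by 0.42 and 0.67 on the log2 scale with siRNA.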

How the data were processed

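Per the labels' protocols, RNA was extracted with the mirVana kit and stranded mRNA libraries were made with a TruSeq kit. The tools named in the submitters' processing notes are fastp, HISAT2 and HTSeq, with genome mm39. Their versions and settings and the gene annotation are not stated there. The deposited table holds FPKM for each library, with genes named by symbol. Whole fragment counts were recovered from the FPKM, and all 17960 genes above 0 came out whole within 0.02. The counts of a gene are the smallest whole numbers its values allow and are known up to a common divisor. A gene above 0 in 1 library, such as Cd163, therefore always reads as 1 fragment. They gave the depth of each library, and a count of 0 allows up to 3 fragments, counting error only.

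Sample titles gave the groups and replicate numbers, and the number of columns with no sample was 0. In R 4.3.3 with limma 3.58.1, the log2 of FPKM + 1 was fitted with a mean per group and eBayes with a trend, the 12 knockdown libraries in 1 fit and the 6 overexpression libraries in another. Testing was limited to genes averaging at least 1 FPKM in a fit, with Benjamini-Hochberg adjustment over all of these. On simulated data with known changes the knockdown fit, over 11178 genes, recovered 42% of 1.25-fold and 98% of 1.5-fold increases in si-Foxm1 against si-NC. Of decreases to 0.5-fold it recovered 94%, and it made 11 false calls. The changed genes were drawn from all tested ones, and the spread beyond counting error was set alike for every gene. These rates therefore do not describe the weakest genes or the wider spread of the Ang-II libraries. The rest was computed with pandas 2.3.3 and numpy 2.4.6 in Python 3.11.15.

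The genes, lists and comparisons were chosen with earlier results of these data known. Values in every library are given for 12 genes, namely the most abundant gene of each role that had more than 1 FPKM, genes changed against the majority of a comparison, and the C1q chains. Genes of other lists were named by smallest p. Alternatives were a pseudocount of 0.1, a limit of 0.1 FPKM or none, median-of-ratios scaling, quantile normalization, a replicate block, all 18 libraries in 1 fit, voom on the recovered counts, and each library left out in turn. Same-numbered libraries correlated by -0.04 to 0.18 in their deviations from group means, over 0.1 in 8 of 21 pairs. Libraries of different number correlated by -0.156 to 0.127, so some structure shared by number is possible. The main fit did not pair libraries by number, and the replicate block was run as an alternative. No protein sequences were used here. Values of some listed genes are not reported here.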

Additional observations from a re-analysis of the deposited data

Results flagged for a closer look

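The effect of Foxm1 siRNA differed with and without angiotensin, by the interaction term of the limma fit, for 3 of the 21 tested genes, where 0.519% of all genes passed as lower. The estimates were -0.404 for Ctss, -0.431 for Gpnmb and -0.415 for Mpeg1, each a larger fall with angiotensin. Ctss changed by -1.07 ± 0.056 without and -1.47 ± 0.056 with angiotensin, Gpnmb by -0.30 ± 0.039 and -0.73 ± 0.039, and Mpeg1 by -0.75 ± 0.053 and -1.16 ± 0.053. In each of the 2 siRNA comparisons all 3 siRNA libraries lay below all 3 libraries of their control. The share of all genes for which this held was not computed. With 1 library left out the count was 1 to 4. It was 1 without si-Foxm1+Ang-II replicate 2 or 3 or si-NC replicate 3, and Ctss lost its call in 6 of these 12 fits. What sets these genes apart was not tested.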

How the results depend on the processing

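Under 26 alternatives, 18 of them leaving out 1 library each, the 77 effects that passed the test gave 1450 values, of which 1421 kept direction and call, 29 lost the call and 0 turned direction. Of 50 effects that did not pass, 20 changed sign without a call and 14 passed in at least 1 alternative. The number of genes that rose with siRNA was 0, and 1 under voom, with 0 to 1 when a library was left out. The number that rose with angiotensin in si-Foxm1 cells was 2, and 1 without a filter and 1 under voom, with 0 to 3 when a library was left out. The number with a lower interaction was 3, and 1 without a filter and 5 under voom, with 1 to 4 when a library was left out. Of all genes 0.519% had a lower interaction in the main fit, 0.217% without a filter and 1.05% under voom. Over all alternatives the genes that fell with siRNA numbered 20 to 24, without as well as with angiotensin, and those that rose with overexpression 11 to 15. With a replicate block the counts were as in the fit without it except that 7 rather than 6 genes rose in Ang-II. Without a filter, C1qb in si-Foxm1+Ang-II against si-Foxm1 (adjusted p = 0.0579), the Ctss and Mpeg1 interactions (0.0862 and 0.0543) and Fcer1g in OE-Foxm1 (0.0578) lost their calls. Quantile normalization ended those of Trem2 in si-Foxm1+Ang-II against si-Foxm1 (-0.17, adjusted p = 0.0837) and the Ctss interaction (0.0581), and voom those of C1qb in si-Foxm1+Ang-II against si-Foxm1 (0.0812) and Tyrobp in OE-Foxm1 (0.051). The cause of these changes was not tested. Depth limits the genes with the fewest fragments, Cd163 and Ccr2, most.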
